A study of Homo sapiens with 6 samples.

Results

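GATA6 and its antisense RNA GATA6-AS1 were followed in definitive endoderm differentiated from the human embryonic stem cell line HuES8. They were chosen by name, as the 2 rows GATA6 and GATA6-AS1 among 58830 genes in the authors' table of TPM, which is read count scaled for gene length and for the total of the library. The 6 libraries of total RNA fell into 2 groups of 3, endoderm with GATA6-AS1 knocked down (KD) and wild-type endoderm (DE). All cells received 100 ng/mL Activin A with 2.5 µM CHIR on day 1 and Activin A without CHIR for 2 further days, in DMEM-F12 with 0.2% BSA. The labels do not state how the knockdown was made or whether DE cells received any construct. A label of KD replicate 3 spells the target GATA6-AS14, while its title and its genotype label name GATA6-AS1. Nothing in the labels says that replicates were separate cultures, so p-values measure only library-to-library spread, possibly technical.

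GATA6 is a zinc-finger transcription factor that binds DNA words with the core GATA and is required for human definitive endoderm and pancreas. In endoderm differentiation, Activin A stands in for the ligand Nodal, whose receptors act through SMAD2 and SMAD3, and GATA6 works with SOX17, FOXA2, EOMES and GATA4. GATA6-AS1 is a long noncoding RNA transcribed in the opposite direction from the 5′ side of GATA6. Antisense RNAs of such head-to-head pairs often share a regulatory region with their coding neighbour and can be co-expressed with it.

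Both genes lie on chromosome 18. On GRCh38 as annotated by GENCODE 29, the antisense gene GATA6-AS1 (ENSG00000266010.2) occupies chr18:22164886-22169878 on the minus strand, with 9 transcripts and 3173 exonic bases. GATA6 (ENSG00000141448.8) occupies chr18:22169443-22202528 on the plus strand, with 2 transcripts and 3945 exonic bases. Of the 9 antisense transcripts, 2 reach into GATA6, and the longer of them covers all 240 bases of the first exon of the longer GATA6 transcript, which is 5′ untranslated sequence. RefSeq, on GRCh38.p14, starts both genes elsewhere. It ends GATA6-AS1 at 22168968 and begins GATA6 at 22169589, with 620 bases between the 2 starts and no shared base. The annotations therefore differ on whether the 2 RNAs overlap at all. GENCODE 29 also places other antisense genes on the minus strand over GATA6. AC091588.1 (chr18:22175465-22176662) lies inside its span and AC091588.3 (chr18:22200619-22205229) crosses its 3′ end.

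The promoter windows of the pair are shown because the starts are close and the RNAs moved in the same direction. The GATA6-AS1 window (RefSeq, GRCh38.p14, minus strand, chr18:22168919-22169218) holds 250 bases before and 50 bases after the RefSeq start. The GATA6 sequence (RefSeq, GRCh38.p14, plus strand, chr18:22169339-22169442) is the 104 bases of its window that precede the first GENCODE exon. Capitals mark GGGCGG, the word bound by SP1, and CAGAC, a word found in SMAD-binding elements, on either strand.
GATA6-AS1: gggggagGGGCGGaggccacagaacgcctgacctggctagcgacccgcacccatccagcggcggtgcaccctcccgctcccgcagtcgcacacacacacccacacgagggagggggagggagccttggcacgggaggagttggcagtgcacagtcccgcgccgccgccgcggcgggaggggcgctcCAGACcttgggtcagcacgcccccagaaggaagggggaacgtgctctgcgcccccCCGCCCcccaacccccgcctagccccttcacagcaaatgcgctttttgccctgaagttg
GATA6: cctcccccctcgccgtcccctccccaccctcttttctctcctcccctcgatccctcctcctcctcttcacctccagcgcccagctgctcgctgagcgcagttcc

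Over the full windows of 300 bases, GC content was 71.3% for GATA6-AS1 and 66.7% for GATA6, against a median of 58.7% over 35116 RefSeq promoters. A total of 8 words were searched on both strands, and the matches did not overlap each other. The GATA6-AS1 window held GGGCGG at 2 places (45.0% of all promoters have it at least once) and CAGAC at 1 place (45.3%). The GATA6 window held CAGAC at position -8, CCAAT at -92 (34.6% of all promoters) and TGTTTA, a forkhead word, at -111 (12.3%), counted from the RefSeq start. These 3 matches lie to the right of the printed stretch. The stretch has no capitals because the GATA6 window held no GGGCGG and its CAGAC lies outside the stretch. Neither window held TATAAA (11.5%), the T-box word TCACAC (4214 of the 35116 promoters) or ATTGT (27.4%), part of SOX sites. Neither held a GATA word, searched as AGATAA and its variant ending in G, and as TGATAA and its variant ending in G, any of which 8769 of the 35116 promoters hold.

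The first comparison asked how far the targeted RNA was reduced, which also checks the labels. GATA6-AS1 was clearly lower in KD endoderm but still well expressed there. It stood at 179.7, 163 and 126 TPM in KD libraries, against 389, 421 and 313 TPM in DE libraries. The highest KD library lay below the lowest DE library. The mean was 157 ± 27.3 TPM in KD and 374 ± 55.1 TPM in DE (SD, n = 3 each), so that KD kept 41.8% of the DE level. Ordered by TPM within each library, GATA6-AS1 was gene 634, 712 and 875 in KD and gene 225, 223 and 248 in DE.

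On the log2(TPM + 1) scale the change was -1.26 (SE 0.164, 95% interval -1.64 to -0.87). It passed the limma test over the 17711 genes that reached 1 TPM in 3 or more libraries (Benjamini-Hochberg adjusted p = 0.0128), in which 3.27% of all genes passed and 1.5% passed as lower in KD. An exact 2-sided permutation test on TPM gave p = 0.1 for 3 against 3 libraries, the smallest p that this design allows. Groups that do not overlap, lower in KD, were found for 10.7% of genes tested, and higher in KD for 10.1%. Without KD replicate 2 or DE replicate 1 the limma adjusted p was 0.0612 or 0.0717, at log2 changes of -1.30 and -1.22.

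The second comparison is the one named in the title of the series, the level of GATA6 when its antisense RNA is reduced. GATA6 was lower in every KD library than in any DE library, but by less than GATA6-AS1. It had 251, 211 and 191 TPM in KD, against 367, 385 and 286 TPM in DE. The mean was 218 ± 30.6 TPM in KD and 346 ± 52.8 TPM in DE (SD, n = 3 each), 63.0% of the DE level. It was gene 405, 501 and 501 by TPM in KD and gene 243, 253 and 280 in DE.

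On the log2(TPM + 1) scale the GATA6 difference was -0.66 (SE 0.150, 95% interval -1.01 to -0.31). This missed the threshold of 0.05 in the limma fit over all genes (adjusted p = 0.0648) and passed with the replicate number as a block (adjusted p = 0.00500), a fit in which 12.5% of all genes passed, 6.62% as lower and 5.88% as higher. The pairing by replicate number was inferred from these same libraries and not from a label. The exact permutation p was 0.1. In a bulk sample, fewer cells that express GATA6 and less GATA6 RNA per cell cannot be told apart.

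**Figure D1:**
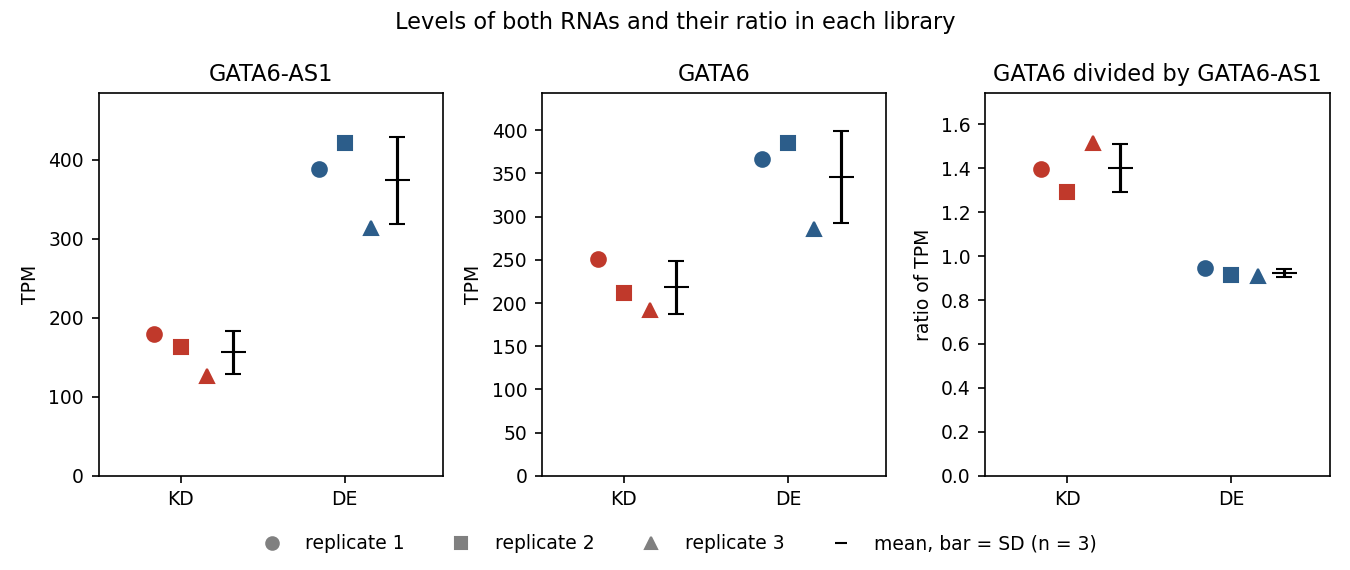
TPM of GATA6-AS1 (left) and GATA6 (middle) and the ratio of their TPM (right) in the 3 KD and 3 DE libraries, each marked by its replicate number, with the mean and SD beside them. KD lies below DE without overlap for both RNAs, and above DE without overlap for the ratio, where the DE libraries sit between 0.912 and 0.944.

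Part of the spread within groups followed the share of RNA encoded by mitochondrial DNA, since TPM are shares of a library's total. That share was 28.3%, 28.8% and 36.2% in KD and 28.5%, 24.6% and 38.04% in DE. Replicate 3 had the highest share and the lowest GATA6-AS1 and GATA6 in both groups. With the 37 mitochondrially encoded genes removed and the rest rescaled to a sum of 1000000, GATA6-AS1 had 251, 229 and 198 TPM in KD and 544, 558 and 506 TPM in DE. GATA6 then had 351, 297 and 300.1 TPM in KD and 513, 510.4 and 461 TPM in DE.

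Rescaling in this way narrowed the groups and left the distance between them in place. The SD as a percentage of the mean was 9.53% in KD and 5.91% in DE for rescaled GATA6, against 14.02% in KD and 15.3% in DE for GATA6 as deposited. KD kept 42.2% of the DE level for GATA6-AS1 and 63.8% for GATA6. In the limma fit on these values both passed, GATA6-AS1 with an adjusted p of 0.00155 and a log2 change of -1.25, and GATA6 with an adjusted p of 0.00684 and a log2 change of -0.65. The same happened to GATA6 under quantile normalization (adjusted p = 0.00633), median-ratio scaling (0.00471) and voom on estimated reads (0.00203), all by limma. Many more genes passed in these fits as well. Over all genes 579 passed as deposited and 1682 with mitochondrially encoded genes removed. Quantile normalization gave 1735, median-ratio scaling 1743 and voom 1850.

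**Figure D2:**
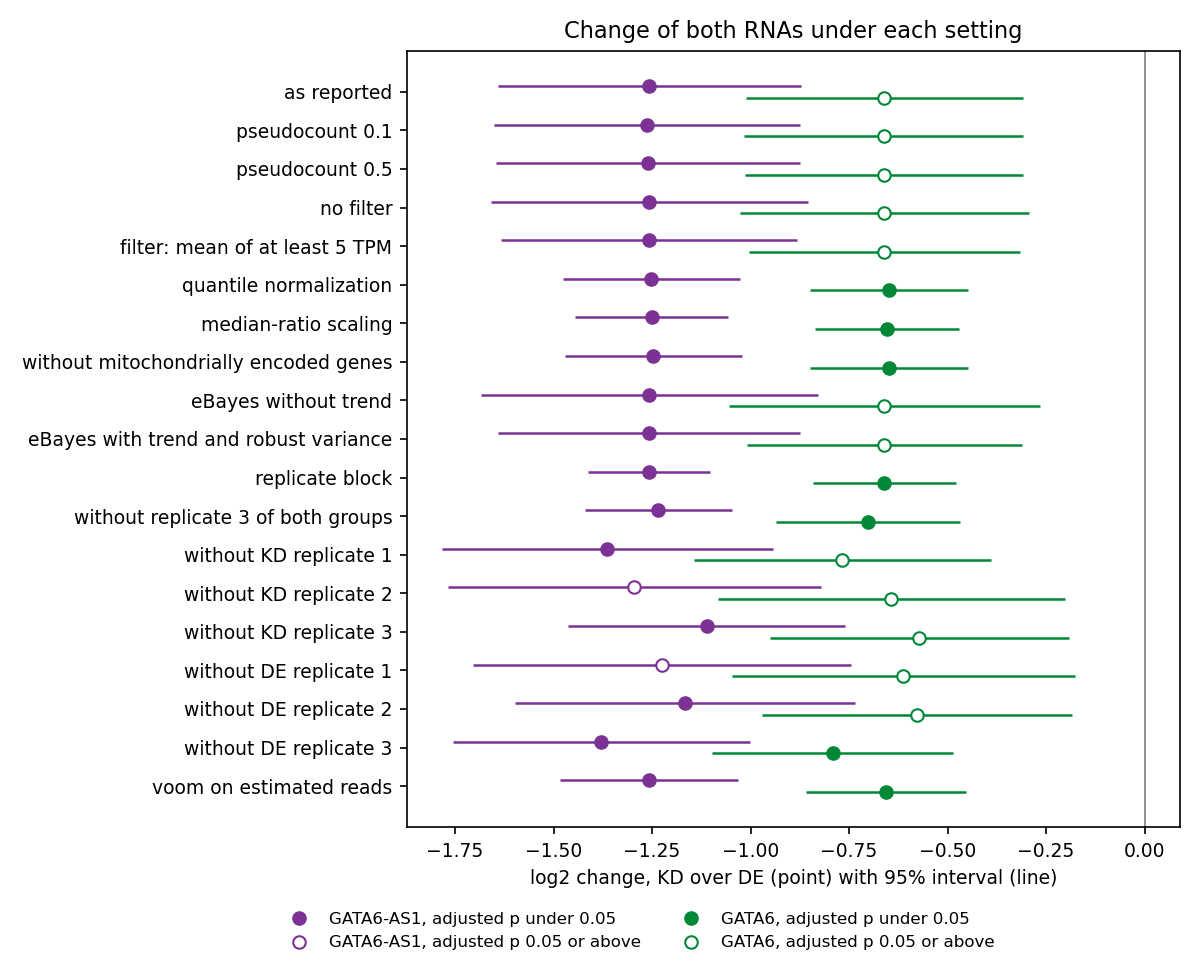
Log2 change of GATA6-AS1 and GATA6, KD over DE, with 95% intervals under each setting, filled where the limma adjusted p was under 0.05. All points lie below 0, from -1.38 to -1.11 for GATA6-AS1 and from -0.79 to -0.57 for GATA6, and the intervals of GATA6 are narrower in the rescaled and blocked fits.

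The third measure was the GATA6 to GATA6-AS1 ratio within each library, which does not move with the total of the library. The ratio was 1.40, 1.29 and 1.51 in KD and 0.944, 0.914 and 0.912 in DE. GATA6-AS1 was thus the higher of the 2 RNAs in every DE library and the lower in every KD library, per exonic length. The mean ratio was 1.40 ± 0.110 in KD and 0.923 ± 0.0182 in DE (SD, n = 3 each), 1.52 times as high in KD. The 3 DE ratios were closer to each other than the 3 KD ratios, with SDs of 1.97% of the mean in DE and 7.84% in KD.

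The ratio was tested in a limma fit over 324 pairs of a gene X and a row named X-AS with a number. In each pair both members reached 1 TPM in 3 or more libraries, of either group. Its log2 change was 0.60 (SE 0.143, 95% interval 0.27 to 0.92) and did not pass after adjustment over the pairs (unadjusted p = 0.00250, adjusted p = 0.0880). Among the 324 pairs, 2 passed (0.617%). The exact permutation test of the 6 ratios gave 0.1, again the smallest p possible, and ratios that do not overlap between groups, higher in KD, were found for 14.2% of pairs, and lower in KD for 6.79%. Taken by replicate number, the log2 ratio was higher in KD by 0.57, 0.50 and 0.73.

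Among these pairs the change of the GATA6 pair was the eighteenth largest rise, with the other pairs running from -1.23 to 1.18 around a median of 0.07. The quartiles were -0.16 and 0.26. The 3 largest rises were those of MMP24 to MMP24-AS1 (1.18, adjusted p = 0.0251), GATA2 to GATA2-AS1 (1.12, adjusted p = 0.0251) and SNAI3 to SNAI3-AS1 (1.10, adjusted p = 0.0527), all by limma over the pairs. MMP24 averaged 2.29 TPM in KD and 0.479 TPM in DE, less in DE than the 1 TPM added to each value. It therefore met the filter on low values mainly through KD, where it was high. GATA2, another GATA factor, averaged 7.59 TPM in KD and 3.42 TPM in DE, while GATA2-AS1 averaged 2.94 TPM in KD and 3.35 TPM in DE. The 3 largest falls were those of FGF12 to FGF12-AS3 (-1.23), GK to GK-AS1 (-0.91) and SUCLA2 to SUCLA2-AS1 (-0.85), and none of them passed. GATA6-AS1 had the highest DE level of the 324 antisense RNAs, whose median was 3.15 TPM, and the second highest level in KD.

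**Figure D3:**
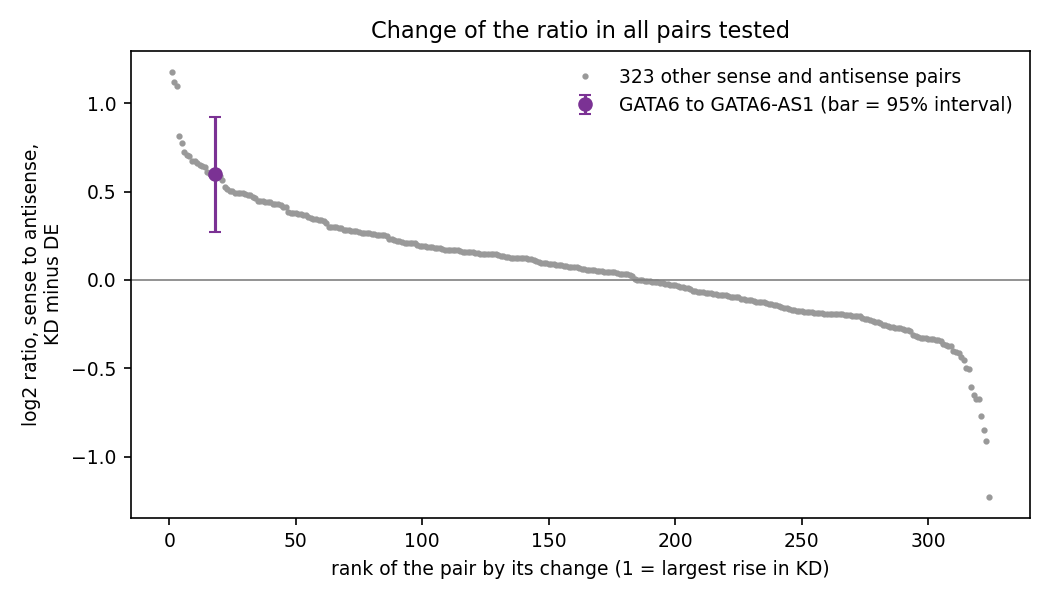
Change of the log2 sense to antisense ratio, KD minus DE, for 324 pairs ordered by size, with the GATA6 pair and its 95% interval marked. The GATA6 pair, at 0.60, is the eighteenth of 324, and most pairs lie within 0.5 of zero.

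How far the 2 RNAs stand from each other depends on the length assigned to GATA6-AS1, whereas the change of the ratio does not. From the steps between low TPM values, GATA6 was estimated to rest on 5594, 5430 and 6102 reads in KD and 10355, 9747 and 7280 reads in DE. GATA6-AS1 rested on 3216, 3376 and 3243 reads in KD and 8818, 8574 and 6422 reads in DE. On these estimates counting error was at most 1.36% for GATA6 and 1.76% for GATA6-AS1, below the spread between libraries. Divided by the longest transcript of each gene, 3770 bases for GATA6 and 1788 for GATA6-AS1, the ratio was 0.825, 0.763 and 0.892 in KD and 0.557, 0.539 and 0.538 in DE. On that scale GATA6-AS1 was the higher RNA in all 6 libraries, provided that the TPM were made with the exonic lengths used here. The annotation release behind the TPM was not given, so that condition, and with it the order in KD, was not tested.

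Neither the strand setting nor the annotation release behind the TPM was stated. In the RefSeq annotation GATA6 and GATA6-AS1 share no base, and with such an annotation the estimate that follows would not apply. In the GENCODE annotation used here they share 240 exonic bases. Reads on these may have been counted for either RNA, for both or for neither. These bases make up 7.56% of the GATA6-AS1 exons and 6.08% of the GATA6 exons. At the average read density of GATA6 they would carry reads equal to between 9.78% and 11.4% of those counted for GATA6-AS1 in KD, and to between 6.90% and 7.14% in DE. If all of these had been counted for GATA6-AS1, its level without them would be 140.02 ± 25.2 TPM in KD and 348 ± 51.2 TPM in DE (SD, n = 3 each), 40.2% of the DE level, against 41.8% as deposited.

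In TPM as deposited, libraries of the same group ranked alike for both RNAs. In KD, replicate 1 was highest and replicate 3 lowest for GATA6-AS1 and for GATA6. In DE, replicate 2 was highest and replicate 3 lowest for both. Without mitochondrially encoded genes the orders of the 2 RNAs differed in both groups, GATA6 being lowest in replicate 2 in KD and highest in replicate 1 in DE. Taken by replicate number, the log2(TPM + 1) change of GATA6-AS1 was -1.11, -1.36 and -1.30 and that of GATA6 was -0.54, -0.86 and -0.58. The larger fall of both RNAs was in the second pair, and GATA6-AS1 fell further than GATA6 in each of the 3.

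Genes whose profile over the 6 libraries was most like that of each RNA were found by the root mean square difference of log2(TPM + 1), each profile centred on its own mean, over 9400 genes of at least 10 TPM on average. For GATA6 these included INPP4A, a phosphoinositide phosphatase (0.0281), COL5A2, a fibrillar collagen (0.0295), KIT, the receptor of stem cell factor and a surface marker of definitive endoderm (0.0431), and SHC2, a signalling adaptor (0.0450). COL5A2 had 328, 294 and 256 TPM in KD and 503, 521 and 382 TPM in DE, in step with GATA6. For GATA6-AS1 the nearest were DACT2, an antagonist of dishevelled (0.0812), VWF, the von Willebrand factor (0.0834), PLPP4, a lipid phosphatase (0.110), the noncoding RNA LINC01612 (0.116) and RP1-167G20.2 (0.118). DACT2 had 21.1, 17.7 and 13.98 TPM in KD and 44.7, 47.8 and 41.4 TPM in DE. The distance between GATA6 and GATA6-AS1 was 0.306, GATA6 standing at place 131 in the order around GATA6-AS1 and GATA6-AS1 at place 2431 in the order around GATA6. The 6 libraries share their group and their replicate 3 level across genes.

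The remaining GATA factors and their cofactors moved in both directions. Of 7 members of this list 5 were tested, of which 1 rose and 2 fell, where 1.77% of all genes rose and 1.5% fell. Their median log2 change was -0.26, against -0.01 over all genes tested. GATA3 had 19.2, 14.5 and 17.4 TPM in KD and 42.3, 35.9 and 43.1 TPM in DE, a log2 change of -1.20 (SE 0.135, limma adjusted p = 0.00776). GATA4, the partner of GATA6 in endoderm, had 112, 88.5 and 112 TPM in KD and 189, 180.0 and 202 TPM in DE, a log2 change of -0.87 (SE 0.119, limma adjusted p = 0.0138). GATA2 was higher in KD by 0.97 (SE 0.152, limma adjusted p = 0.0209). ZFPM1, a FOG cofactor of GATA factors, had a log2 change of -0.26 and GATA5 of -0.16, and neither passed. Without DE replicate 1 none of the 5 passed, and GATA2 also did not pass without any 1 of the KD libraries, nor GATA4 without KD replicate 2. GATA2 did not pass without the filter on low values either. Over all 17711 genes, 99 passed without DE replicate 1, and 170, 87 and 252 without KD replicate 1, 2 or 3.

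Among definitive endoderm genes, the change of GATA6 lay in the middle. Of 22 listed genes, all of them tested, 10 fell and none rose, where 1.5% of all genes fell. Their median log2 change was -0.64 and 11 of the 22 had a more negative change than GATA6. The chemokine receptor CXCR4 had 141, 108 and 109.9 TPM in KD and 251, 260.2 and 202 TPM in DE, a log2 change of -0.99 (limma adjusted p = 0.0173). FOXA2, a pioneer factor, had 79.4, 68.4 and 80.2 TPM in KD and 126, 129.9 and 126 TPM in DE, a change of -0.74 (0.0125). PRDM1, a transcriptional repressor, fell by 0.88 on the log2 scale (0.00958), OTX2, a homeobox factor, by 0.74 (0.00871) and FGF17, a fibroblast growth factor, by 0.60 (0.0137). SOX17 had 343, 252 and 198 TPM in KD and 537, 673 and 443 TPM in DE, a log2 change of -1.07 that did not pass (0.0530), and EOMES one of -0.31 that did not pass (0.132), all by limma. With the replicate block 18 of the 22 fell, where 6.62% of all genes did, SOX17 and EOMES among them (limma adjusted p = 0.00757 and 0.0368). With mitochondrially encoded genes removed 15 fell, and without KD replicate 2 or DE replicate 1 none did. The count was 7 without KD replicate 1, 6 without KD replicate 3, 5 without DE replicate 2 and 12 without DE replicate 3. Over all 17711 genes, in either direction, 170, 252, 212 and 610 passed in those fits, in that order. Without KD replicate 2 or DE replicate 1, 87 and 99 genes passed. With mitochondrially encoded genes removed, 1682 genes passed.

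**Figure D4:**
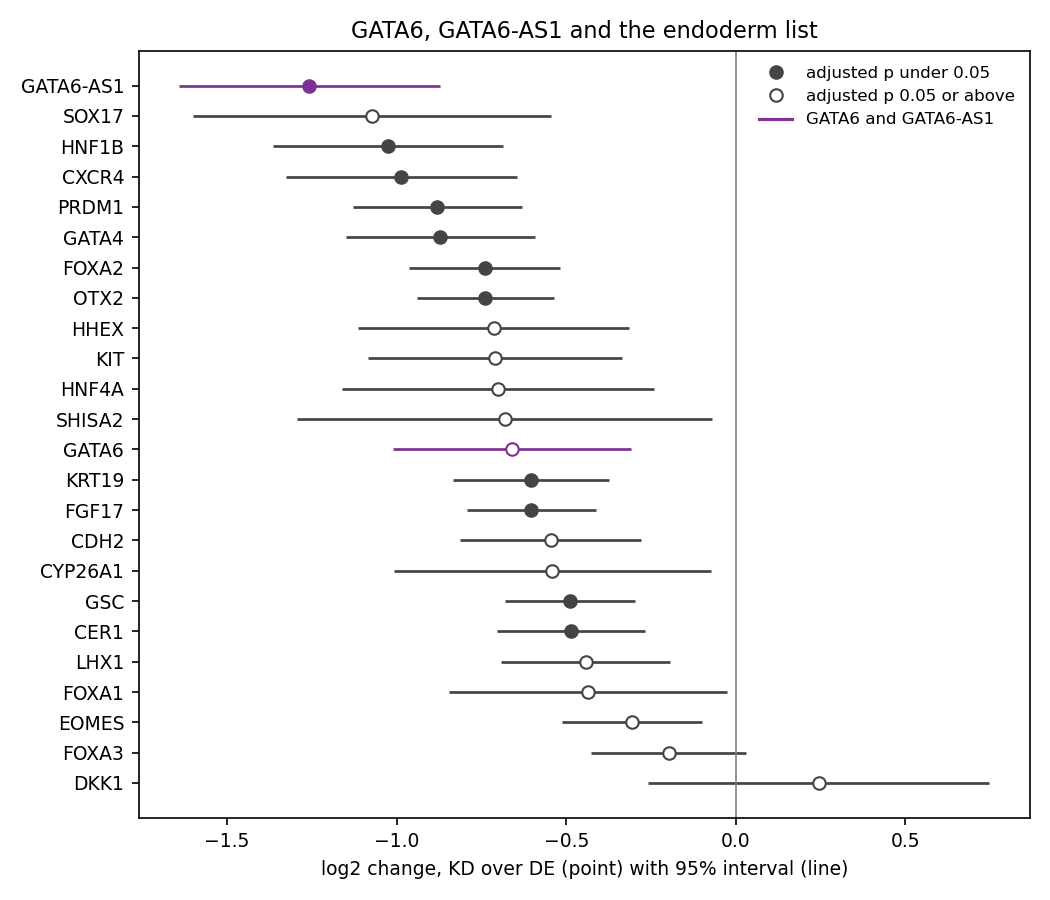
Log2 change, KD over DE, with 95% intervals for GATA6-AS1, GATA6 and the 22 listed endoderm genes, filled where the limma adjusted p was under 0.05. GATA6-AS1 lies at the low end at -1.26, 11 of the 22 listed genes are more negative than GATA6 at -0.66, and DKK1 is the member above 0.

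In a list of Activin, Nodal and Wnt components and their target genes, 2 of those tested rose and none fell. Of 24 listed names 21 were tested, and over all genes tested 1.77% rose and 1.5% fell. The other 19 did not pass, and the median log2 change was -0.07. SMAD2 averaged 6.34 ± 0.798 TPM in KD and 7.04 ± 0.851 TPM in DE (SD, n = 3 each), a log2 change of -0.13, and SMAD3 averaged 23.7 ± 0.826 TPM in KD and 23.9 ± 1.40 TPM in DE, a change of -0.01. NODAL had a change of -0.02 and MIXL1, a homeobox gene of mesendoderm, of -0.06. GDF3, a TGF-beta family ligand, was higher in KD by 1.29 (limma adjusted p = 0.00415), and T, the brachyury gene of the primitive streak, by 0.64 (0.0196). LEFTY2, a Nodal antagonist, had a change of -0.65 that did not pass (0.159; 0.0172 with the replicate block, all by limma). With the block 2 rose and 4 fell, EOMES, LEFTY1, LEFTY2 and the Wnt target AXIN2, where 5.88% of all genes rose and 6.62% fell. With mitochondrially encoded genes removed 2 rose and 2 fell. Only GDF3 passed without any 1 of the KD libraries or without DE replicate 1. The counts over all genes in these fits are those given for the endoderm list.

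The libraries also differed in genes of the stem cells from which the endoderm was made. Of 14 listed pluripotency genes, all tested, 9 rose and none fell, where 1.77% of all genes rose. The median log2 change was 0.71, and 3 of the 14 had a change below 0. These were SALL4 (-0.35), TDGF1 (-0.22) and LIN28A (-0.0027), and SALL4 passed as lower with the replicate block (limma adjusted p = 0.0138). UTF1, among the 9 that rose, averaged 3.62 TPM in KD and 0.609 TPM in DE, and met the filter only through KD. The summed level of the 14 was 4028 to 4597 TPM in KD and 3035 to 3827 TPM in DE, and none of the defining markers POU5F1, SOX2 and NANOG was at 0 in either group. SOX2 had 139.95, 156 and 142 TPM in KD and 73.1, 80.8 and 67.4 TPM in DE, a log2 change of 0.98 (limma adjusted p = 0.00587). POU5F1 was higher by 0.87 (0.0131), NANOG by 0.93 (0.0147) and DPPA2 by 1.49 (0.00388), all by limma. The part of this difference in the lower GATA6 and GATA6-AS1 was not tested. The count was 10 higher and 1 lower with the block, where 5.88% of all genes rose and 6.62% fell. It was the same with mitochondrially encoded genes removed. It was 2 higher without KD replicate 1, KD replicate 2 or DE replicate 1, 7 without KD replicate 3, 5 without DE replicate 2 and 8 without DE replicate 3. Over all genes, the counts in the fits other than the block are those given for the endoderm list.

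GATA6 is also expressed in extraembryonic endoderm and in the heart, and trophoblast and amnion express other GATA factors. The 3 lists for these cells held genes at both ends of expression. AFP, TTR, TNNT2, KRT7 and CGA averaged between 0 and 0.293 TPM in both groups. Other members were well expressed, such as SPARC, a matrix glycoprotein, at 652 TPM in KD and 744 TPM in DE, and LAMB1, a laminin chain, at 102 TPM in KD and 95.01 TPM in DE. KDR averaged 122 TPM in KD and 83.9 TPM in DE, and TBX5 averaged 15.97 TPM in KD and 7.38 TPM in DE. TFAP2C averaged 22.3 TPM in KD and 13.2 TPM in DE. Over all genes tested, 1.77% rose and 1.5% fell, and with the block 5.88% rose and 6.62% fell. Of 15 extraembryonic endoderm genes 10 were tested and 2 fell, APOA2, an apolipoprotein (log2 change -1.23, limma adjusted p = 0.0140), and COL4A1, a basement membrane collagen (-0.57, 0.0301). COL4A2 (-0.44) and HNF4A (-0.70) did not pass. The summed level of that list was 990.3 to 1056 TPM in KD and 1133 to 1311 TPM in DE. Neither passed without KD replicate 1, KD replicate 2, DE replicate 1 or DE replicate 2, and 1 did without KD replicate 3, 3 of the list without DE replicate 3 and 4 with the block. Neither APOA2 nor COL4A1 passed without the filter on low values. For all 3 lists, the counts over all genes with 1 library left out or mitochondrially encoded genes removed are those given for the endoderm list. Of 14 cardiac and mesoderm genes 9 were tested. HAND1 fell (log2 change -1.62, limma adjusted p = 0.0123), while TBX5, a cardiac T-box factor (1.02, 0.00572), and KDR, the VEGF receptor (0.54, 0.0484), rose. HAND1 had 0.816, 0.353 and 1.07 TPM in KD and 4.50, 3.67 and 4.72 TPM in DE. It met the filter on low values only through DE, where it was high. The summed level of those 14 was 188 to 209.9 TPM in KD and 153 to 196 TPM in DE. MYL7, an atrial myosin light chain, had a change of -0.88 (0.0719; 0.00536 with the block, by limma), and 3 of the list fell with the block or with mitochondrially encoded genes removed.
Any single KD library or DE library left out took away at least 1 of the 2 rises, KD replicate 2 both, and DE replicate 1 also the fall. KDR did not pass without the filter on low values either. Of 10 trophoblast and amnion genes 5 were tested. TFAP2C, a transcription factor also present in stem cells, rose (log2 change 0.72, limma adjusted p = 0.0197), as did GATA2, and GATA3 and HAND1 fell. Neither rise passed without any 1 of the KD libraries, 1 passed without DE replicate 2, and none of the 4 passed without DE replicate 1. The summed level of those 10 was 53.6 to 56.8 TPM in KD and 69.01 to 73.7 TPM in DE. The part of these differences in the level of GATA6 was not tested.

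On chromosome 18, none of the 11 tested genes of the surrounding list of 14 passed in either direction by limma with or without the block, or with any 1 library left out, and none did with mitochondrially encoded genes removed. Over all genes tested 3.27% passed, and 12.5% with the block, so a count of 0 among 11 is near the background. At an unadjusted p under 0.05 (limma) there was 1 of the 11. The share of all genes under that threshold was not taken, so this count has no background beside it. Their median log2 change was 0.04. The 4 with the smallest p were SNRPD1, a spliceosome core protein, with a log2 change of 0.24 (adjusted p = 0.320, by limma), CABLES1 with 0.28, TMEM241 with 0.16 and ABHD3 with -0.12.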

How the data were processed

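RNA-seq of total RNA from 3 KD and 3 DE libraries was used as deposited by the authors, as TPM for 58830 genes; each column sums to 1000000. Per the submitters' processing notes, the tools were HISAT2 2.1.0, featureCounts and DESeq2, and the build GRCh38, with no role stated. Annotation release and strand setting: not given in the sources used here. Since TPM keep no depth, reads were estimated for 37138 rows matched to GENCODE 29 by multiplying TPM by summed exon length; between 88.3% and 89.0% of low values (under 50 reads) lay within 0.02 of whole multiples of 1 constant per library. That check covers low values only and does not test the lengths of GATA6 and GATA6-AS1. Totals were 18646019 to 24509958 reads. They served to describe depth and for voom.

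Genes that reached 1 TPM in 3 or more libraries were tested as log2(TPM + 1), so fold changes understate those of low genes, by limma 3.58.1 (R 4.3.3, group term, eBayes with trend), with Benjamini-Hochberg adjustment and a threshold of 0.05. Sense to antisense ratios were fitted likewise, as log2 of (TPM + 1) ratios. Single values had 2-sided exact permutation tests (scipy 1.17.1). Fits were tested on simulated data.

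The members, lists and tests were chosen with earlier results of these data known. Named were both members, up to 4 members of each of 8 lists with the smallest p, 8 markers, the 5 nearest profiles of each member (1 is not reported here) and the 3 extreme pairs at either end; SMAD2, SMAD3, NODAL, MIXL1, GATA5, AFP, TTR, TNNT2, KRT7, CGA, SPARC, LAMB1, LEFTY1, AXIN2 and DKK1 were named after their values were seen. SALL4, TDGF1, LIN28A and UTF1 were also named after their values were seen. Deviations from group means correlated over genes at 0.108, 0.144 and 0.347 between same-numbered KD and DE libraries, above the limit of 0.1 for treating numbers as pairs. The pairing rests on this check and not on a label, and the unmatched KD replicate 1 and DE replicate 2 correlated at 0.121.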

Additional observations from a re-analysis of the deposited data

How the results depend on the processing

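The directions of GATA6-AS1, GATA6 and their ratio were the same under all alternatives run. With single libraries left out, the log2 change was -1.38 to -1.11 for GATA6-AS1, -0.79 to -0.57 for GATA6 and 0.54 to 0.65 for the ratio. GATA6 passed under quantile normalization (-0.65), median-ratio scaling (-0.65), without mitochondrially encoded genes (-0.65), with the replicate block (-0.66), without replicate 3 of both groups (-0.70), with voom (-0.66) and without DE replicate 3 (-0.79). The ratio passed in 1 of 12 alternatives, over pairs of at least 5 TPM (0.60, limma adjusted p = 0.0348). In that fit fewer pairs were tested and the SE was 0.108, against 0.143 over all pairs. The share of pairs that passed in it was not taken, so the call has no background beside it. The replicate block changed no call of GATA6-AS1 or of the ratio.

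The count of all genes passed, 579, was 239 without a filter, 1735 under quantile normalization, 1743 under median-ratio scaling, 1682 without mitochondrially encoded genes, 2215 with the replicate block, 1212 without replicate 3 of both groups, 1850 with voom, 106 at a threshold of 0.01, and 87 to 610 with single libraries left out, where fewer samples enter. Without a filter, 4 of the 22 endoderm genes fell and 3 of the 14 pluripotency genes rose. The cause of the other shifts was not tested. With single libraries left out, the median of the Activin, Nodal and Wnt list was -0.22 to -0.036 and that of the cardiac and mesoderm list -0.48 to -0.17. The medians of the other 6 lists moved by less than their spread between libraries, that of the chromosome 18 list between -0.077 and 0.12. Groups of 3 and the unstated strand setting and annotation release limit these results, and estimated counting error was at most 1.76% for the 2 RNAs.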
